A study of Mus musculus with 4 samples.

Results

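Parathyroid hormone, the calcium-sensing receptor and the granin family of secretory granule proteins were followed on 4 Affymetrix arrays of embryonic mouse trachea. The genes were Pth, Gcm2, Casr, Calca, Chga, Chgb, Scg2, Scg3, Scg5 and Pcsk2, chosen by name. Every probe set paired with one of these symbols and no other was taken whatever its level. Of these 10 genes, 7 had a probe set in the annotation used here, with 8 probe sets in all among 45037 non-control probe sets and 18193 genes. Gcm2, Calca and Pcsk2 had no probe set so paired and were not analysed here. Each sample was embryonic trachea, taken at embryonic day 16 from C57BL/6 mice. There were 2 wild-type and 2 a1H knockout samples, and replicates 1 and 2 are named in both genotypes; the study sought homozygous embryos to set against wild type. a1H was read as Cacna1h, the gene for the pore of a T-type calcium channel. The labels give neither the deleted part of the gene nor whether a sample was 1 embryo or a pool, so p-values here reflect the spread among these arrays alone, and that spread may be technical.

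The parathyroid glands arise from the third pharyngeal pouch, together with the thymus, and lie beside the thyroid close to the trachea. Their chief cells secrete parathyroid hormone when the calcium-sensing receptor reports low calcium in the blood, and the transcription factor Gcm2 is required for these cells to form. The C cells of the thyroid, which make calcitonin from Calca, and the neuroendocrine cells of the airway epithelium also store peptides in dense-core granules. Granins are acidic proteins packed into such granules with the hormone: Chga and Chgb encode the chromogranins, Scg2 and Scg3 encode secretogranins, and Scg5 encodes 7B2, the chaperone of the prohormone convertase made from Pcsk2. Sympathetic neurons and chromaffin cells use the same proteins.

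Promoters of granin genes are known for a cyclic AMP response element, the site of CREB-family factors, close to the start of transcription. The 150 bases before the RefSeq start site were read from promoter sequences of the build GRCm38.p6, in which all 10 genes had an entry. They are shown for the 5 granin genes and for Pth, the hormone gene. The granins were picked because they parted in the deposited signals. That split was not tested, and neither was any part of the motif in it. Capitals mark the core TGACG or its reverse complement CGTCA, which overlap in the full palindrome TGACGTCA. Chga and Chgb lie on the plus strand and the other 4 on the minus strand, and each sequence reads 5′ to 3′ along the gene's own strand.
Chga, chr12:102554791-102554940: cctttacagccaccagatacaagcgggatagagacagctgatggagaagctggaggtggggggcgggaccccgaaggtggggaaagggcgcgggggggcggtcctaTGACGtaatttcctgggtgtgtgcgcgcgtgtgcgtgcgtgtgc
Chgb, chr2:132781492-132781641: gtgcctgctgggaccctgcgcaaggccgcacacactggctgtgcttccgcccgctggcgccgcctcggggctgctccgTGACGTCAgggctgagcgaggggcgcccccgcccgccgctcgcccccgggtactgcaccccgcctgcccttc
Scg2, chr1:79440027-79440176: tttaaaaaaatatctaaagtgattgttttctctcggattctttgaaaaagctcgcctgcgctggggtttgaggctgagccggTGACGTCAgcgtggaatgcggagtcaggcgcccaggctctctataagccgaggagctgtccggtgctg
Scg3, chr9:75684057-75684206: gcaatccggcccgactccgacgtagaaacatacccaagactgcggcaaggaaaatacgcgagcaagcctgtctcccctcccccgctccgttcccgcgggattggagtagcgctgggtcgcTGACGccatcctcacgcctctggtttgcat
Scg5, chr2:113829092-113829241: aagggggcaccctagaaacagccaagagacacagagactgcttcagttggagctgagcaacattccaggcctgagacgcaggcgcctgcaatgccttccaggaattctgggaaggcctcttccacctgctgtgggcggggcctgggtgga
Pth, chr7:113388574-113388723: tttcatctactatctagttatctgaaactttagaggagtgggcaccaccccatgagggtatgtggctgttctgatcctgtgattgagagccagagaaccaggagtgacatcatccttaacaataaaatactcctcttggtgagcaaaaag

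The full palindrome stood in Chgb, 72 bases before the start site, and in Scg2, 68 bases before it. Among 32851 promoter windows of the same length, 1.36% held it. The core alone stood 44 bases before the start in Chga and 30 bases before it in Scg3, and neither form was in the Scg5 and Pth windows. Of the 10 genes 6 held the core, Calca and Pcsk2 among them, against 13.3% of all windows. The motif was sought on both strands. A match is a description of these letters, and no match says only that the letters are not in this window.

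The tissue, the label and the arrays were checked first. All 12 listed tracheal genes had a probe set, and 11 of them lay at or above the median level of all probe sets. So did 11694 of all 18193 genes, so this count is a weak check of the tissue. The listed gene below that level was Nkx2-1, at signals of at most 337. Array medians were between 320 and 458.6. The 9 hybridisation controls gave a geometric mean of 6361 and 6258 on the number 1 arrays of wild type and knockout and 14756 and 18565 on the number 2 arrays. The ratio of the actin 3′ to 5′ signal was 1.69 and 1.66 on wild-type arrays against 1.90 and 1.97 on labelled-knockout arrays. For Gapdh this ratio was 1.26 and 1.4 on wild-type arrays against 1.36 and 1.61 on labelled-knockout arrays, with overlapping groups. Cacna1h was not lower in the labelled knockout. It gave 629.5 and 538 on wild-type arrays against 981 and 631 on labelled-knockout arrays, a log2 difference of 0.43 (SE 0.32). A probe set outside the deleted part checks nothing, so every direction here rests on the labels.

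Pth was among the brightest probe sets on every array, and its genotypes overlapped in the deposited signals but not after quantile normalisation. Its signal was 15566 and 22213 on wild-type arrays against 13924 and 19619 on labelled-knockout arrays, at percentile 98.4 or higher on each array. The number 1 array was the lower of the pair in each genotype. With quantile normalisation the log2 values were 14.15 and 14.27 on wild-type arrays against 13.94 and 14.02 on labelled-knockout arrays, so both knockout arrays then lay below both wild-type arrays. In the deposited signals the means were 18889 ± 4700.4 and 16771 ± 4027 (SD, n = 2 per group), a log2 difference, labelled knockout minus wild type, of -0.17 with an SE of 0.29. The 95% interval ran from -0.85 to 0.51, and the adjusted p in the limma fit over all genes was 0.941. This interval does not show that the genotypes were alike, and the sign turned to 0.086 without wild-type replicate 2 and to 0.077 without knockout replicate 1. Fewer cells of a type and less RNA per cell cannot be told apart in such bulk samples.

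Between the highest and the lowest array Pth differed 1.6-fold. Markers of the neighbouring glands were set beside it. Tg, which encodes thyroglobulin, the hormone precursor of thyroid follicles, gave 20367 and 27888 on wild-type arrays against 19217 and 15050 on labelled-knockout arrays, a 1.85-fold range. Prss16, a protease of thymic cortical epithelium, gave 615 and 1604 on wild-type arrays against 6554 and 2727 on labelled-knockout arrays, a 10.7-fold range. Prss16 is named for its small unadjusted p within its list, and Tg after its values were seen, so these ranges are values beside Pth and no comparison with it.

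Casr, the receptor by which parathyroid cells sense calcium, was dim on every array. The brighter of its probe sets gave 221 and 112 on wild-type arrays against 78.9 and 63 on labelled-knockout arrays, at percentiles 22.7 to 37.1 of the probe sets. Both knockout arrays lay below both wild-type arrays. The log2 difference was -1.01 (SE 0.50), an interval from -2.22 to 0.20 and an adjusted p of 0.886 by limma. The dimmer one gave 42 and 75.5 on wild-type arrays against 36.5 and 54.1 on labelled-knockout arrays, with overlapping groups and a log2 difference of -0.26. That difference was 0.15 with quantile normalisation and 0.065 without wild-type replicate 2, so the 2 probe sets of Casr did not give a common direction under every setting. Without wild-type replicate 1, the array with the highest Casr signal, the difference on the brighter probe set was -0.57.

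**Figure D1:**
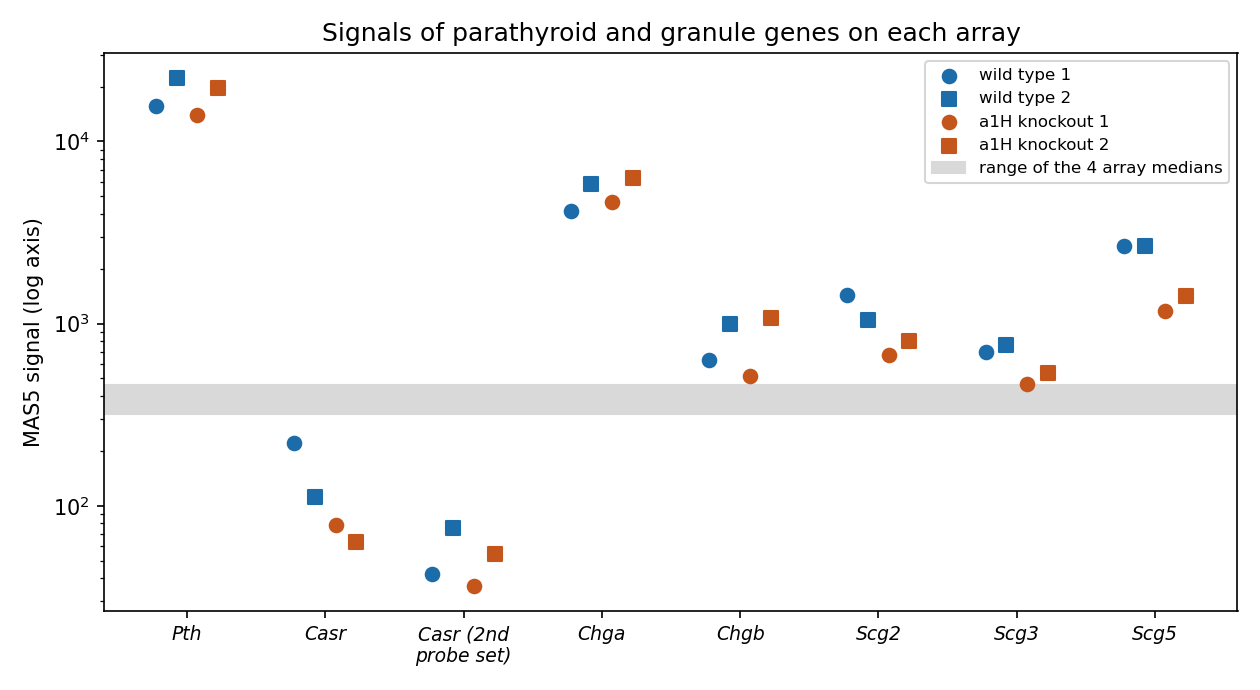
MAS5 signal (log axis) of the 8 probe sets of the 7 measured genes, with 1 point per array, blue for wild type and orange for the labelled a1H knockout, circles for replicate number 1 and squares for number 2. The grey band spans the 4 array medians, 320 to 458.6; both Casr probe sets lie below it, and in Scg2, Scg3 and Scg5 both knockout points lie below both wild-type points in these deposited signals, for Scg3 not after quantile normalisation. Brightness also depends on the probe, so heights of different genes are not comparable.

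In the deposited signals the granins parted into those with overlapping groups, Chga and Chgb, and those lower on both knockout arrays, Scg2, Scg3 and Scg5; with quantile normalisation Scg3 overlapped too. No gene passed the test. In the limma fit over 18193 genes 0 were called at a Benjamini-Hochberg threshold of 0.05 (0% called), and the smallest adjusted p was 0.886. An unadjusted p under 0.05 was seen for 849 genes, or 4.67%. Of these 450, or 2.47% of all genes, were lower in the labelled knockout, and they included Scg2 and Scg5, 2 of the 7 measured members. Groups did not overlap, with the knockout lower, for Casr, Scg2, Scg3 and Scg5, 4 of 7, against 19.1% of all genes. With quantile normalisation they were Pth, Casr, Scg2 and Scg5, against 14.1% of all genes. None of the 7 had groups apart with the knockout higher, against 16.8%. The log2 difference was below 0 for 6 of 7, against 51.8% of all genes. Its median was -0.53 over the 7 genes and -0.018 over all genes. The genes had been chosen with earlier results of these data known, so these counts describe them and test nothing. With 2 arrays per group an exact two-sided permutation test cannot give a p below 0.333.

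Scg5 had the smallest unadjusted p of the measured members, 0.00147, the 8th smallest among 18193 genes. 7B2, its product, binds the convertase precursor and lets it mature without aggregating. The signal was 2653 and 2664 on wild-type arrays against 1168 and 1414 on labelled-knockout arrays. Both knockout arrays lay far below the wild-type pair, at 1291 ± 174 against 2659 ± 7.83 (SD, n = 2 per group). The wild-type mean was 2.06-fold the knockout mean, and the log2 difference was -1.04 (SE 0.20), with an interval from -1.52 to -0.56 before adjustment. The adjusted p by limma was 0.886, and over all alternatives it ran from 0.124 to 1. The difference was -1.17 between the number 1 arrays and -0.91 between the number 2 arrays. It lay between -1.18 and -0.90 with each array left out in turn.

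Scg2 encodes secretogranin II, the precursor of secretoneurin. It gave 1434 and 1054 on wild-type arrays against 677 and 805 on labelled-knockout arrays, so the groups stood apart but the nearest arrays, wild type 2 and knockout 2, were close. The log2 difference was -0.72 (SE 0.27), an unadjusted p of 0.0338 and an adjusted p of 0.886 by limma. It was -1.07 between the number 1 arrays and -0.38 between the number 2 arrays. Scg3 encodes secretogranin III, which anchors other granins to the granule membrane. It gave 698 and 764 on wild-type arrays against 465 and 536 on labelled-knockout arrays, with every knockout value below every wild-type value. With quantile normalisation its groups overlapped, at 9.34 and 9.62 on wild-type arrays against 8.83 and 9.36 on labelled-knockout arrays on the log2 scale. The log2 difference was -0.53 (SE 0.29), an interval from -1.23 to 0.16 and an adjusted p of 0.886 by limma. Its differences within the numbers were -0.57 and -0.50.

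Chga encodes chromogranin A, the most widely used marker of endocrine granules. It gave 4166 and 5817 on wild-type arrays against 4653 and 6302 on labelled-knockout arrays, at 4991 ± 1167 and 5478 ± 1166 (SD, n = 2 per group). The values alternated, with each number 1 array below each number 2 array. The log2 difference was 0.14 (SE 0.24), an interval from -0.45 to 0.72 and an adjusted p of 0.947 by limma. It turned to -0.10 without wild-type replicate 1 and to -0.081 without knockout replicate 2. Chgb, which encodes chromogranin B, gave 631 and 995 on wild-type arrays against 518 and 1069 on labelled-knockout arrays. Its lowest and highest values were both in the knockout. The log2 difference was -0.086 (SE 0.42) with an adjusted p of 0.978 by limma, and its sign turned with quantile normalisation (0.0044), without wild-type replicate 2 (0.24) and without knockout replicate 1 (0.42). The interval for Chga did not reach down to the estimate for Scg5, and the interval for Chgb, from -1.09 to 0.92, did. Whether the differences of the granins differ from each other was not tested.

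**Figure D2:**
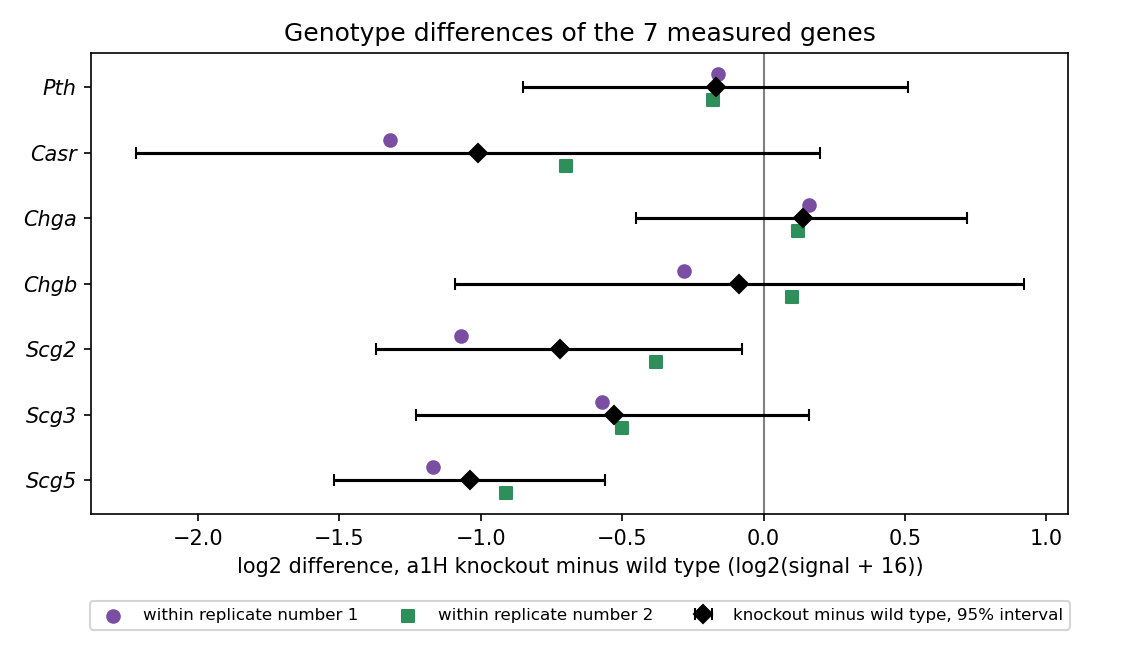
Log2 differences, labelled a1H knockout minus wild type on the log2(signal + 16) scale, of the 7 measured genes. Diamonds with bars are the limma estimates with unadjusted 95% intervals over all 4 arrays, circles and squares the differences within replicate numbers 1 and 2; the intervals of Scg5 (-1.52 to -0.56) and Scg2 (-1.37 to -0.075) lie below 0, and those of the other 5 genes include it.

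Chga and Chgb were ordered by replicate number, and Pth was so in the deposited signals only. Both number 2 arrays lay above both number 1 arrays in these 3 of the 7 genes, against 16.3% of all genes. With quantile normalisation this held for Chga, Chgb and Scg3, against 20% of all genes, while Pth was ordered by genotype. Within wild type the number 2 array exceeded the number 1 array by 0.51 for Pth, 0.48 for Chga and 0.64 for Chgb on the log2 scale, and within the knockout by 0.49, 0.44 and 1.02. The medians of all genes for the same differences were -0.081 and -0.053. With quantile normalisation the differences for Pth were 0.12 and 0.082, those for Chga 0.51 and 0.42, and those for Chgb 0.83 and 1.26. The hybridisation controls given above also parted by number, and their part in these values was not tested. The labels do not say that the numbers mark a batch. The brighter Casr probe set ran the other way, with differences of -0.88 and -0.26. The dimmer one did not, with differences of 0.66 and 0.42.

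**Figure D3:**
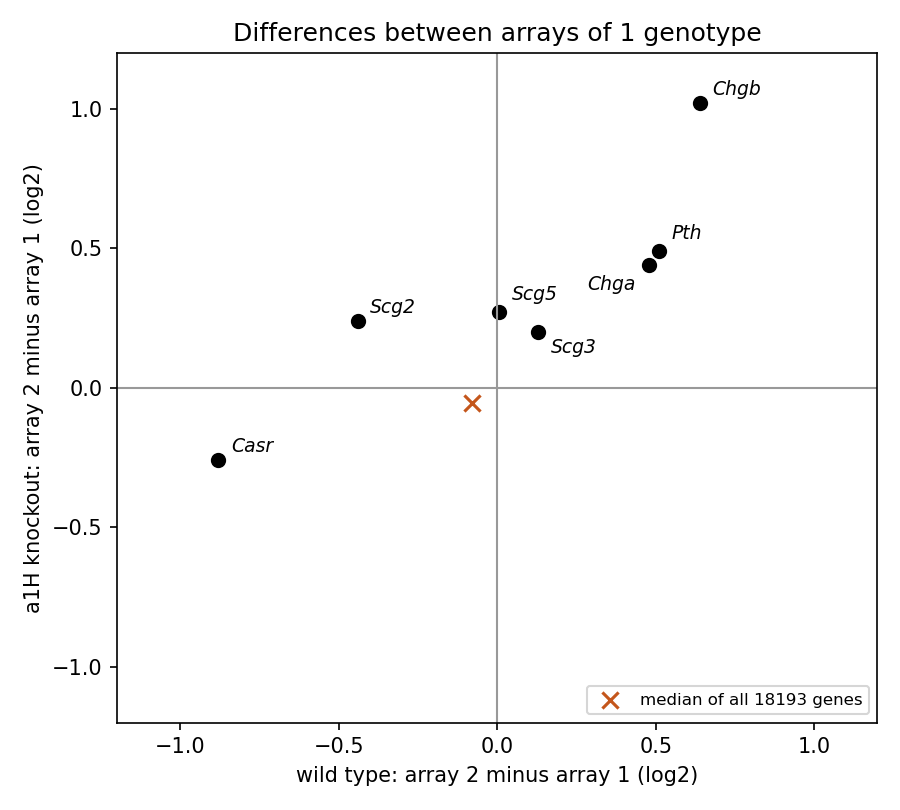
Log2 difference between the number 2 and the number 1 array in wild type (horizontal axis) and in the labelled a1H knockout (vertical axis), with 1 point per measured gene and a cross at the median of all 18193 genes (-0.081 and -0.053). Pth, Chga and Chgb lie to the upper right, the brighter Casr probe set to the lower left, and Scg2 differs in sign between the genotypes (-0.44 and 0.24). The dimmer Casr probe set, at 0.66 and 0.42, is not drawn.

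The other genes of hormone processing and granule release lay on both sides of 0. Of 22 genes, all measured, 15 were lower and 7 higher in the labelled knockout, where 51.8% of all genes were lower. In this list 0 passed the test, and 0 had an unadjusted p under 0.05. The groups did not overlap for 6 lower and 2 higher genes, where the shares over all genes were 19.1% and 16.8%. The median over the list was -0.17. It was 0.074 between the number 1 arrays and -0.46 between the number 2 arrays, and it was -0.39 without knockout replicate 1. Slc18a1, the vesicular monoamine transporter of endocrine cells, gave 599.7 and 623 on wild-type arrays against 349 and 404 on labelled-knockout arrays, a log2 difference of -0.68. Rab27b, a GTPase that docks granules, gave 2621 and 3534 on wild-type arrays against 1999 and 2423 on labelled-knockout arrays, a difference of -0.46. Syt4, a synaptotagmin of dense-core vesicles, had -0.68, and Rab3b, another granule GTPase, had 0.92 at signals of at most 342. Cpe, the carboxypeptidase that trims peptides after the convertases cut, was chosen after its values were seen. It gave 12537 and 21064 on wild-type arrays against 13300.1 and 20471 on labelled-knockout arrays, alternating with the number as Chga did.

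Regulators of the third pouch and of parathyroid fate were mixed. Of 11 measured genes of 13, 5 were higher and 6 lower, where 51.8% of all genes were lower. Of the 11 genes 0 passed, and the median log2 difference was -0.09. It was -0.21 without wild-type replicate 2. Pax1, a pouch factor that acts in thymus and parathyroid formation, gave 596 and 1186 on wild-type arrays against 3062 and 2997 on labelled-knockout arrays, a log2 difference of 1.83, with an unadjusted p of 0.00107 and an adjusted p of 0.886 by limma. Without knockout replicate 1 the adjusted p for Pax1 was 0.0456 by limma; that fit takes its spread from the wild-type arrays and assumes that the lone knockout array varies like them. Hoxa3, required for derivatives of this pouch, had a log2 difference of -0.47. The protein-coding neighbours of Pth on the chromosome are Btbd10 and Far1. Btbd10 read between 2247 and 2389 over the 4 arrays, and Far1 between 8193 and 9480.3.

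Calca itself could not be read, and other genes of C cells stood in its place. Of 13 measured genes of 14, 9 were lower and 4 higher, where 51.8% of all genes were lower. Of the 13 genes 0 passed, and the median log2 difference was -0.20. It was -0.36 without knockout replicate 1 and -0.11 without knockout replicate 2. Calcb, the related calcitonin-family gene next to Calca, gave 117 and 232 on wild-type arrays against 409.6 and 178 on labelled-knockout arrays, with overlapping groups. Cyp2r1, the neighbour on the other side, read between 141 and 182. Ret, the receptor tyrosine kinase of C cells and of neural-crest neurons, gave 2759.9 and 2118 on wild-type arrays against 1707 and 1483 on labelled-knockout arrays, a log2 difference of -0.60 with an unadjusted p of 0.0296 and an adjusted p of 0.886 by limma. Ddc, the decarboxylase of amine synthesis, gave 4266 and 4166 on wild-type arrays against 5762 and 5782 on labelled-knockout arrays, a difference of 0.45 in the opposite direction. With probe sets of a gene averaged, the differences of Ret and Ddc were -0.34 and 0.32. Nkx2-1, a transcription factor of thyroid and airway, had -0.83 at signals of at most 337.

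Most thyroid follicle genes read lower on the labelled-knockout arrays, and none passed the test by limma. Of 9 measured genes of 12, 8 had a log2 difference below 0, against 51.8% of all genes, and 7 of them were without overlap, against 19.1%. An unadjusted p under 0.05 by limma was seen for 2, Hhex and Tshr, both lower. Of all genes 2.47% had such a p and were lower. Slc26a4, which encodes the anion exchanger pendrin, had 0.12, and Slc5a5, the sodium-iodide symporter, had -0.095 with overlapping groups; both were chosen after their values were seen. The median over the list was -0.53, and -0.49 and -0.53 within numbers 1 and 2. Tshr, the thyrotropin receptor, gave 424 and 396 on wild-type arrays against 198 and 160.3 on labelled-knockout arrays, a difference of -1.13. Hhex, a factor of thyroid formation, and Iyd, the iodotyrosine deiodinase, had -0.55 and -0.38. The summed signal of this list was 34400.2 and 40405 on wild-type arrays against 28883 and 24389.7 on labelled-knockout arrays. Its part in the Scg5, Scg2 and Scg3 differences was not tested.

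Genes of other cells that carry granins were lower in some cases and higher in others. Of 15 measured genes of airway neuroendocrine cells out of 16, 11 were lower and 4 higher, where 51.8% of all genes were lower. Their median was -0.16, and it was 0.092 with quantile normalisation and 0.13 without knockout replicate 1. Of 13 measured genes of paraganglion and chromaffin cells out of 14, 7 were higher and 6 lower, with a median of 0.10. That median was -0.12 with probe sets of a gene averaged, -0.065 without wild-type replicate 2 and -0.088 without knockout replicate 1. Th, tyrosine hydroxylase, was dim but apart, at 29 and 42.4 on wild-type arrays against 159 and 186 on labelled-knockout arrays, a log2 difference of 1.87 with an unadjusted p of 0.0054 and an adjusted p of 0.886 by limma. Dbh, which makes noradrenaline, had 0.77. Slc18a1, which is in this list too, had -0.68. Groups of this list did not overlap for 3 lower and 3 higher genes, where the shares over all genes were 19.1% and 16.8%. The summed signals of the paraganglion list were 10431 and 11484 on wild-type arrays against 12197 and 12890.2 on labelled-knockout arrays. Ddc, which is also in the C-cell and neuroendocrine lists, was the largest single part of each sum. It gave 4266 and 4166 on wild-type arrays against 5762 and 5782 on labelled-knockout arrays, so these sums do not show a rise over the whole list.

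Of 15 neuronal genes, all measured, 9 were higher and 6 lower, where 51.8% of all genes were lower. The median was 0.088. That median was -0.21 with probe sets of a gene averaged, -0.13 without wild-type replicate 1 and -0.28 without knockout replicate 2, and it was 0.35 without wild-type replicate 2 and 0.45 without knockout replicate 1. Snap25, a fusion protein of synapses and granules, gave 1752 and 1975 on wild-type arrays against 1190.4 and 1489 on labelled-knockout arrays, a log2 difference of -0.48, and Elavl3, an RNA-binding protein of neurons, had -0.56. Nefm, a neurofilament subunit, and Prph, the intermediate filament peripherin, had 0.81 and 0.56, and Prph turned to -0.83 with its probe sets averaged. The summed signals of the neuronal list were 16308 and 19074 on wild-type arrays against 13365 and 25422 on labelled-knockout arrays, and these groups overlapped. No gene of the neuroendocrine, paraganglion or neuronal lists passed the test by limma, and 3 entries had an unadjusted p under 0.05, all higher in the labelled knockout: Th once and Ddc in both lists that hold it. Of all genes 4.67% had such a p in either direction.

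Most thymic genes read higher on the labelled-knockout arrays, and salivary transcripts differed between single arrays. Of 10 measured thymic epithelial genes, 8 were higher in the labelled knockout, and of 10 measured thymocyte genes 9 were. Of all genes 51.8% were lower. Groups did not overlap, with the knockout higher, for 5 genes of each list, against 16.8% of all genes. An unadjusted p under 0.05 by limma was seen for 3 thymic epithelial and 4 thymocyte genes, all higher. Of all genes 4.67% had such a p in either direction. The list medians were 0.71 and 0.99. Within numbers 1 and 2 they were 1.13 and 0.30 for thymic epithelium and 2.35 and 0.0045 for thymocytes. Psmb11, the proteasome subunit of thymic cortex, Prss16 and the chemokine gene Ccl25 had log2 differences of 2.11, 2.07 and 1.72. That of Ccl25 was 0.72 with its probe sets averaged. Thy1, Ptcra and Cd3d, of thymocytes, had 1.25, 1.81 and 1.66, with 0 of these genes past the threshold. The thymic epithelial sum was 23502 and 28862 on wild-type arrays against 39519 and 35645 on labelled-knockout arrays. The thymocyte sum was 9169.5 and 19731 on wild-type arrays against 40014 and 17957 on labelled-knockout arrays, highest on knockout 1. The salivary gland sum was 2909 and 86371 on wild-type arrays against 28839 and 15027 on labelled-knockout arrays, highest on wild type 2. The part of these tissues in the values of the 7 measured genes was not tested. Among tracheal genes 10 of 12 were lower, against 51.8% of all genes, and 4 of them were without overlap, against 19.1%. Their median was -0.25. It was -0.032 without wild-type replicate 2, -0.059 without knockout replicate 1, -0.42 without wild-type replicate 1 and -0.46 with probe sets averaged. Sox2, a transcription factor of foregut epithelium, had -0.60.

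**Figure D4:**
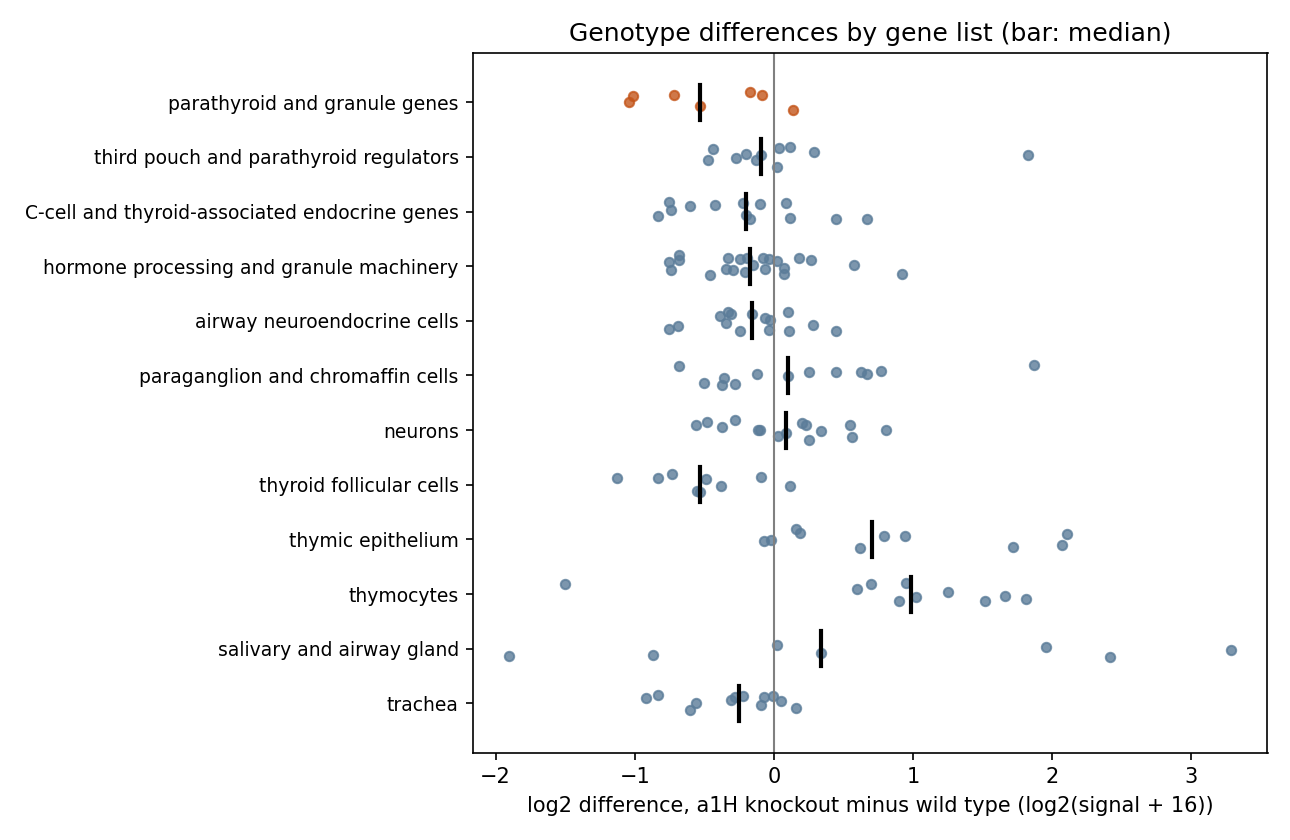
Log2 differences, labelled a1H knockout minus wild type on the log2(signal + 16) scale, with 1 point per gene, the 7 measured parathyroid and granule genes in orange and the comparison lists in blue; a black bar marks each median. Medians run from -0.53 for the 7 genes and the thyroid follicle list to 0.99 for thymocytes, and no point passed the limma test. The thymocyte median was 2.35 within replicate number 1 and 0.0045 within number 2.

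The genes most like each pattern were sought by the root mean square difference between log2 profiles over the 4 arrays, each centred on its own mean, among 11693 genes at or above the median level. Nearest to Pth were Nr3c1 (0.0209), the glucocorticoid receptor gene, then Ptprj (0.0314) and Nucb2 (0.0329). Nearest to Chga were Eef2k (0.0145), Elovl5 (0.0177) and Mbd6 (0.0177). Such profiles were common: 167 genes lay within 0.1 of Pth and 408 within 0.1 of Chga. Only 2 of the 11693 genes lay within 0.1 of Scg5, Rsph14 (0.0711) and AU040972 (0.0873), followed by Gm6607 (0.103). The profile of Scg5 itself was more spread, with a root mean square of 0.529 against 0.266 for Pth and 0.239 for Chga.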

How the data were processed

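Total RNA was extracted with Trizol, and 50 ng was amplified by SPIA with the Ovation Pico system and labelled with biotin, per the labels' protocols. The authors deposited MAS5 intensities, per the submitters' processing notes, 1 per probe set on a linear scale; for MAS5, version and parameters were not given in the sources used here. Within these deposited intensities the mean trimmed by 2% at each end was 1500 on every array, so they looked scaled to a common target. MAS5 is noisy for dim probe sets, and no detection calls were used. Of the non-control probe sets, 34945 had 1 gene, 932 several and 9160 none in the platform table, and only those with 1 gene were used for genes. Of the probe sets with 1 gene, 34741 were matched by gene identifier to RefSeq (GRCm38.p6) and took its symbol. The 64 control probe sets were left out.

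Each gene was represented by its brightest probe set on the log2(signal + 16) scale, with no filter on level. Groups came from sample titles. limma 3.58.1 in R 4.3.3 (lmFit, trended eBayes, a genotype term alone) was fitted over all 18193 genes with Benjamini-Hochberg adjustment at a threshold of 0.05, and was tested on simulated data. Fold changes on the log2(signal + 16) scale understate differences of dim genes. SEs are moderated. The precision is limited by 2 arrays per group, and the median 95% half-width of a log2 difference was 0.72. Named genes were all members, up to 4 genes per comparison list with the smallest unadjusted p, and the nearest profiles; exceptions are marked. The members and lists were chosen with earlier results of these data known. Alternatives were pseudocounts of 1 and 64, a filter at the median level (a signal of 397), quantile normalisation, no trend, the mean of all probe sets, a replicate block, and each array left out. Plots were made in matplotlib 3.10.9 (Python 3.11.15).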

Additional observations from a re-analysis of the deposited data

How the results depend on the processing

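None of the 7 measured genes passed the threshold in any alternative, and 4 of them, Casr, Scg2, Scg3 and Scg5, kept their direction in all of them. The count of genes called was 0 in every setting except with an array left out, where it ran from 0 to 136: 136 without knockout replicate 1 and 3 without knockout replicate 2, fits in which the lone knockout array is assumed to vary like the wild-type arrays. The median log2 difference of the measured genes, -0.53, was -0.35 with the level filter, which removes Casr, and -0.39 with quantile normalisation, and it ran from -0.63 to -0.44 with each array left out. Quantile normalisation moved the median of all genes from -0.018 to 0.066. It turned Chgb to 0.0044, Cpe to -0.026, Slc5a5 to 0.077 and the dimmer Casr probe set to 0.15. The mean of all probe sets turned Cpe to -0.64 and Prph to -0.83. Without a change of sign it moved Ccl25 from 1.72 to 0.72, Pax1 from 1.83 to 1.41 and Casr from -1.01 to -0.64. Likewise Ret moved from -0.60 to -0.34, Ddc from 0.45 to 0.32 and Tshr from -1.13 to -0.80. Further from 0 were Slc18a1, from -0.68 to -0.94, and Slc5a5, from -0.095 to -0.67. With each array left out in turn, the ranges were -0.43 to 0.086 for Pth, -0.10 to 0.38 for Chga, -0.60 to 0.42 for Chgb, -0.59 to 0.065 for the dimmer Casr probe set, -0.35 to 0.40 for Cpe, -0.81 to 1.05 for Slc26a4 and -0.35 to 0.16 for Slc5a5; the cause was not tested. The log2 deviations of same-numbered arrays from their group means correlated at 0.15 over all genes and 0.32 over genes at or above the median level, with only 2 pairs. With the replicate number as a block 0 genes were called by limma, 1636 had an unadjusted p under 0.05 in place of 849, and the adjusted p of Scg5 was 0.548. Apart from Cpe, Prph, Slc26a4 and Slc5a5, the other named genes with a stated difference kept their direction, and of these Pax1 alone passed, without knockout replicate 1. The number of arrays limits the precision of every value.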
